A study of Canis lupus familiaris with 12 samples.

Results

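The miR-106b~miR-25 and miR-106a~miR-363 clusters are the paralogs of the oncogenic miR-17~92 cluster. The members were the entries named cfa-miR-106b, cfa-miR-93 and cfa-miR-25 for the first cluster and cfa-miR-106a, cfa-miR-18b, cfa-miR-20b and cfa-miR-363 for the second (cfa- marks the dog and is left off from here), 7 of the 453 mature canine miRNAs listed in the count table. They were compared between CHMm, a line from a metastatic canine mammary gland tumor, and CHMmTAM, the tamoxifen (TAM)-resistant line derived from it and labelled Tamm in the samples. CHMmTAM was selected by rising concentrations over 10 months until it grew in 10 μM TAM, held there for 1 month, and then kept without the drug for 1 week. The labels give CHMm no TAM treatment, and the stated medium for all samples had no phenol red and contained steroid-depleted serum. The paper's culture methods also list hydroxytamoxifen in that medium, without saying which lines received it. Whether CHMm was grown without the drug is therefore not settled. Small RNA of each line was sequenced in 3 libraries. The resistant line is 1 selected derivative, so resistance cannot be told apart from other differences between the lines. Nothing states that the 3 libraries of a line came from separate cultures, so p-values measure the spread between these libraries, which may be technical. RNA-seq libraries of both lines were not analysed here.

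A miRNA acts through its seed, a short stretch near its 5′ end that pairs with target mRNAs and lowers their translation and stability. miR-106b, miR-93, miR-106a and miR-20b share the seed of miR-17 and miR-20a, and this family is known to repress the cell-cycle inhibitor p21 and members of the E2F pathway. miR-18b belongs with miR-18a. miR-25 and miR-363 share the seed of miR-92a, a family known to repress the pro-apoptotic BIM. miR-106b~miR-25 lies in an intron of MCM7, a DNA replication gene driven by E2F, and miR-106a~miR-363 lies on the X chromosome. Among the genes that RefSeq lists for the dog assembly UU_Cfam_GSD_1.0, MIR106B, MIR93 and MIR25 followed each other within the span of MCM7. MIR363, MIR92A-2, MIR19B-2, MIR20B, MIR18B and MIR106A followed each other and lay within no other gene of that table. Mature miR-19b and miR-92a also come from miR-17~92 (MIR19B-1 and MIR92A-1), so their counts cannot be assigned to either locus and neither was taken as a member.

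The counts per library summed to between 7512659 and 12482211, and the 284 miRNAs with 10 or more counts in all were tested. Of the 7 members, 6 were tested, and miR-363 was not. miR-21 took from 50.2% to 54.5% of the counts of a library. Libraries of a line differed from each other beyond sampling noise (chi-square between 26.3 and 85.8 per degree of freedom), so none was counted as a repeat deposit. All 7 epithelial miRNAs chosen as markers (miR-200a, miR-200b, miR-200c, miR-141, miR-429, miR-203 and miR-205) were tested, and they summed to between 25124 and 26471 CPM (counts scaled to a common library size, here with TMM factors) in CHMm and between 22450 and 23736 CPM in CHMmTAM. Of these, miR-200a, miR-200b and miR-429 were higher in CHMmTAM and miR-203 and miR-205 lower, with miR-205 at a mean of 5998 CPM in CHMm and 3802 CPM in CHMmTAM. Of the muscle markers, 4 of 7 were tested and all 4 were higher in CHMmTAM, from sums of 277 to 314 CPM up to 418 to 431 CPM, most of it miR-499, while miR-208a had no count. Of the blood cell markers, 4 of 5 were tested and 2 were higher, from 4.81 to 6.15 CPM up to 11.7 to 15.0 CPM, with miR-144 at no more than 3 counts in any library. Stromal markers summed to 39.7 to 47.6 CPM in CHMm and 23.8 to 28.8 CPM in CHMmTAM, with 1 of 4 lower and none higher. The part of these markers in the results below was not tested.

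Of the 7 members, 4 rose in CHMmTAM at an FDR below 0.05 (edgeR quasi-likelihood fit, Benjamini-Hochberg values over all tested miRNAs) and none fell. They were miR-93 and miR-106b of the first cluster and miR-20b and miR-106a of the second, the 4 members with the miR-17 seed. miR-25 and miR-18b did not pass the test. Over all tested miRNAs 25.4% passed in this direction and 18.7% in the opposite one, 72 and 53 miRNAs. That balance depends on the scaling, since upper-quartile factors gave 41 higher and 100 lower, RLE factors 64 and 73, and the DESeq2 Wald test 59 and 66. The rises were between 1.33-fold and 1.63-fold, so no member passed the study's added threshold of 1 on the size of the log2 fold change, which 5.99% of tested miRNAs passed upward and 5.28% downward. Under upper-quartile factors 3 members were higher (without miR-106a) and 1, miR-25, was lower. For the 6 tested members the log2 fold changes had a median of 0.44, against 0.06 over all tested miRNAs. In bulk RNA, a change in the cells that carry a miRNA and a change in its amount per cell cannot be told apart.

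Within miR-106b~miR-25, miR-93 was the most abundant member. It was at 2503, 2659 and 2566 CPM in the 3 CHMm libraries and at 3356, 3684 and 3743 CPM in the 3 CHMmTAM libraries. Every CHMmTAM library lay above every CHMm library, as for 28.9% of tested miRNAs. The log2 fold change was 0.48 (standard error 0.07, edgeR FDR = 3.00e-12, n = 3 libraries per line), or 1.40-fold. Relative to the other miRNAs, miR-93 moved from rank 32 to rank 29 of 284.

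miR-106b, encoded beside miR-93 and with the same seed, was less abundant. Its CHMm libraries were at 753, 755 and 737 CPM and its CHMmTAM libraries at 929, 1061 and 989 CPM. The lines again did not overlap, and the spread in CHMm was small, with a mean of 748 ± 10.2 CPM (SD, n = 3). The log2 fold change was 0.41 (standard error 0.07, edgeR FDR = 2.32e-08), or 1.33-fold.

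miR-25, the third miRNA of that intron, did not pass the test. It was at 2098, 2223 and 2055 CPM in CHMm and at 2155, 2406 and 2192 CPM in CHMmTAM. The lines overlapped. The log2 fold change was 0.08, with a 95% interval from -0.05 to 0.21 and an edgeR FDR of 0.322. This interval lies below that of miR-93, which ran from 0.35 to 0.61, and below that of miR-106b, which ran from 0.27 to 0.54. Upper-quartile factors moved the median of all tested miRNAs from 0.06 to -0.18. Under them the log2 fold change of miR-25 turned to -0.16 and passed narrowly as lower (edgeR FDR = 0.0444). miR-106b at 0.16 remained higher but also passed narrowly (edgeR FDR = 0.0419), while miR-93 was at 0.24 (edgeR FDR = 0.00258).

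**Figure D1:**
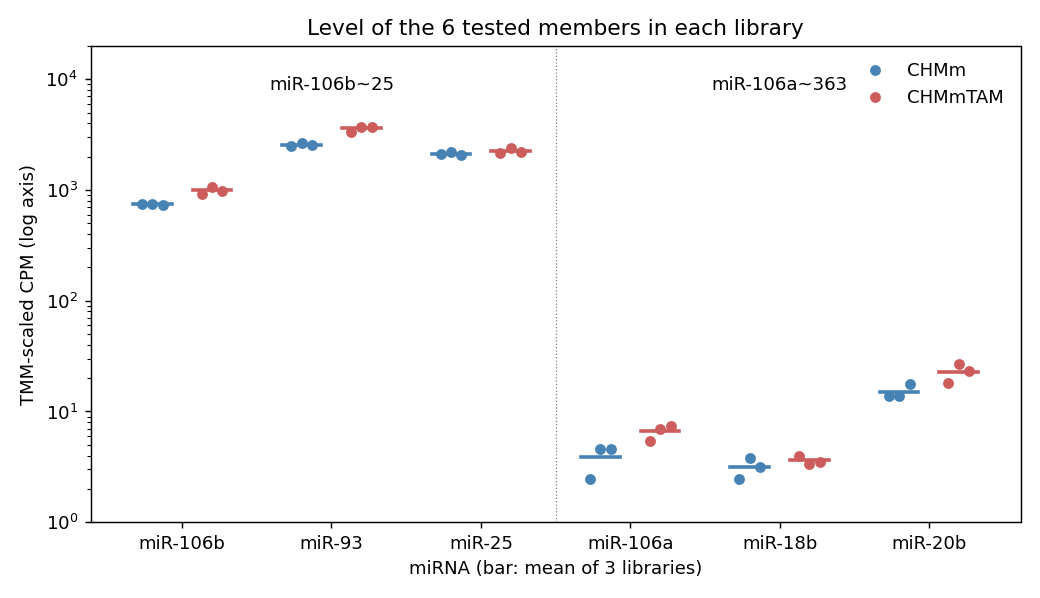
TMM-scaled CPM (log axis) of the 6 tested members in each CHMm (blue) and CHMmTAM (red) library, with a bar at the mean of 3 libraries and a dotted line between the clusters. The miR-106b~miR-25 members lie between 737 and 3743 CPM and the miR-106a~miR-363 members between 2.46 and 26.8 CPM, and the lines overlap for miR-25 and miR-18b.

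The change of these 3 miRNAs relative to each other was also measured as ratios of counts within a library, on which scaling has no bearing. There were from 1.19 to 1.25 counts of miR-93 per count of miR-25 in the CHMm libraries and from 1.53 to 1.71 in the CHMmTAM libraries. The log2 ratio thus differed by 0.40, against SDs of 0.04 in CHMm and 0.09 in CHMmTAM. For miR-106b over miR-25 the ratio was between 0.340 and 0.359 in CHMm and between 0.431 and 0.451 in CHMmTAM, a difference of 0.32 on the log2 scale. The libraries of the lines did not overlap in either ratio, and the two-sided exact permutation p was 0.1 for each, the smallest that 3 against 3 libraries can give (0.28 adjusted over the 14 ratios computed). The ratio of miR-106b to miR-93 overlapped between the lines, with a difference of -0.07 in log2 (exact permutation p = 0.3). In shares of the cluster's counts, miR-25 went from 39.0% ± 0.565 (SD, n = 3) in CHMm to 32.9% ± 1.11 in CHMmTAM. miR-93 went from 47.3% ± 0.584 to 52.6% ± 1.33, and miR-106b from 13.7% ± 0.336 to 14.5% ± 0.286.

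**Figure D2:**
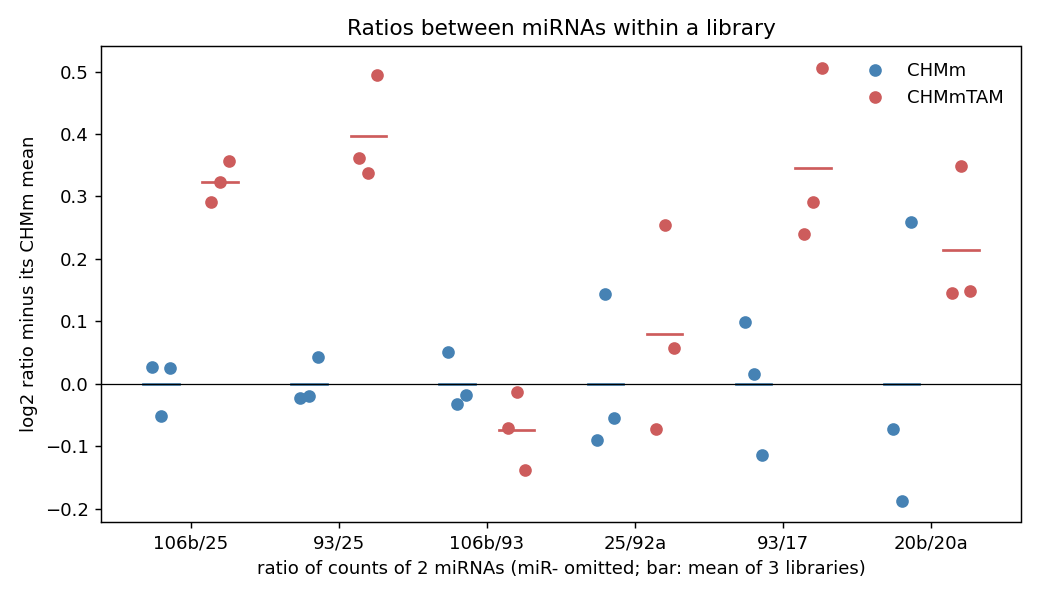
Log2 ratio of the counts of 2 miRNAs within each library, less the mean of that ratio in CHMm, for 6 of the 14 ratios; blue points are CHMm, red points CHMmTAM, bars the means of 3 libraries. The red points of 106b/25, 93/25 and 93/17 lie above all blue points, and those of 106b/93, 25/92a and 20b/20a overlap with them.

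The members of miR-106a~miR-363 were present at far lower levels. miR-20b, its most abundant member, was at 13.8, 13.9 and 17.5 CPM in CHMm and at 18.2, 26.8 and 23.0 CPM in CHMmTAM. These values rest on 101 to 296 counts per library. The lines did not overlap, though the highest CHMm library and the lowest CHMmTAM library were close. The log2 fold change was 0.58 (standard error 0.13, edgeR FDR = 1.63e-05), or 1.50-fold. Under upper-quartile factors it was 0.34 (edgeR FDR = 0.0278). Added to its near-identical relative miR-20a, the sum changed by 0.37 (edgeR FDR = 5.03e-08), a value carried by miR-20a, which had from 30988 to 67580 counts per library. How reads matching both were counted is not stated. Per count of miR-20a there were 0.0030 to 0.0041 counts of miR-20b in CHMm and 0.0038 to 0.0044 in CHMmTAM, which overlap. Whether the miR-20b counts include reads of miR-20a was not tested.

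The CHMm libraries held 18, 53 and 41 counts of miR-106a and the CHMmTAM libraries 69, 77 and 59. As CPM these were 2.46, 4.56 and 4.58 against 5.40, 6.98 and 7.41, so the lines did not overlap, and CHMm replicate 1 was the lowest library. The log2 fold change was 0.70 with a wide 95% interval, from 0.29 to 1.11 (edgeR FDR = 0.00262). Without CHMm replicate 1 it was 0.50 and no longer passed (edgeR FDR = 0.0604), nor did it under upper-quartile factors (0.46, edgeR FDR = 0.0675). miR-106a is nearly identical in sequence to miR-17, and how reads matching both were counted is not stated. With the counts of miR-106a and miR-17 added together the log2 fold change was 0.20 (edgeR FDR = 0.0787).

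For miR-18b the CHMm libraries held 18, 44 and 28 counts and the CHMmTAM libraries 51, 37 and 28, or 2.46, 3.79 and 3.13 CPM against 3.99, 3.35 and 3.52 CPM. The lines overlapped. The log2 fold change was 0.18 with a 95% interval from -0.32 to 0.68 (edgeR FDR = 0.609), so at this depth neither a rise of the size seen for miR-93 nor a small fall could be told from no change. Added to its near-identical relative miR-18a, the sum changed by 0.45 (edgeR FDR = 3.65e-09), a value carried by miR-18a, which held between 98.9% and 99.3% of the counts of the pair.

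miR-363 had 1 count in CHMm replicate 2 and no count in the other 5 libraries. A count of 0 allows up to 3 counts, between 0.240 and 0.399 CPM, where counting error alone is considered. No comparison between the lines was possible for this miRNA.

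In order of mean level in CHMm, the members ran miR-93, miR-25, miR-106b, miR-20b, miR-106a, miR-18b and miR-363, and the order was the same in CHMmTAM. Mature miRNAs are of similar length, so CPM was compared between them, although cloning efficiency can differ between sequences. All neighbours in this order were separated in every library except miR-106a and miR-18b, which had 18 counts each in CHMm replicate 1. In CHMm they were at 3.87 ± 1.22 and 3.13 ± 0.663 CPM (SD, n = 3), which overlap, and in CHMmTAM at 6.60 ± 1.06 and 3.62 ± 0.332 CPM, which do not. The difference of 0.58 in their log2 ratio between the lines was not separated from the spread between libraries (two-sided exact permutation p = 0.2). The differences within this cluster were also small against the spread for miR-106a over miR-20b (0.22 in log2, exact permutation p = 0.7) and for miR-18b over miR-20b (-0.36, exact permutation p = 0.4).

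Summed over its members, miR-106b~miR-25 was at 5354, 5636 and 5358 CPM in CHMm and at 6440, 7150 and 6924 CPM in CHMmTAM, 1.25-fold higher in the mean. As a share of all counts it was 0.546% ± 0.0253 (SD, n = 3) in CHMm and 0.683% ± 0.0273 in CHMmTAM. The 95% Wilson interval of the highest CHMm library ended at 0.576% and that of the lowest CHMmTAM library began at 0.655%. miR-106a~miR-363 summed to 18.7, 22.3 and 25.3 CPM in CHMm and 27.6, 37.2 and 33.9 CPM in CHMmTAM, 1.49-fold higher. Of the counts in this sum, miR-20b gave 68.5% ± 5.85 (SD, n = 3) in CHMm and 68.7% ± 3.19 in CHMmTAM. The change of the sum is thus largely that of miR-20b. Over the members summed here, the first cluster was between 192 and 286 times as abundant as the second in every library. That ratio leaves out miR-19b and miR-92a, which the second locus also encodes. Their counts cannot be assigned to a locus, and miR-92a alone had a mean of 7117 CPM in CHMm. In both sums the lines did not overlap. Under upper-quartile factors the log2 ratio of the sums was 0.085 in place of 0.33 for miR-106b~miR-25 and 0.33 in place of 0.57 for miR-106a~miR-363. No test was run on the sums.

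miR-17~92, the cluster most like these, was compared with them member by member. Of its 6 miRNAs, miR-18a, miR-19a, miR-20a and miR-19b rose, with log2 fold changes of 0.45, 0.46, 0.37 and 0.34 (edgeR FDR at most 6.91e-05), while miR-17 at 0.13 (edgeR FDR = 0.304) and miR-92a at 0.0028 (edgeR FDR = 0.986) did not pass. Among those that rose, the lines overlapped only for miR-19b. Counts of miR-19b and miR-92a can also come from miR-106a~miR-363. The median of the 6 was 0.35. Under upper-quartile factors it was 0.11, with 2 of the 6 higher and 1 lower. The ratio of miR-93 to miR-17 was higher in every CHMmTAM library, by 0.35 in log2, and so was that of miR-106b to miR-17, by 0.27, each with an exact permutation p of 0.1. miR-106a over miR-17 was higher by 0.67 with the same p. miR-17 had a mean of only 35.8 CPM in CHMm, against 4367 CPM for miR-20a. Ratios of miR-93 and miR-106b to miR-20a were not computed. The log2 fold changes of miR-93 and miR-106b were 0.48 and 0.41, against 0.37 for miR-20a. miR-20b over miR-20a differed by 0.21 (p = 0.3) and miR-18b over miR-18a by -0.23 (p = 0.3) in the exact permutation test, and in both ratios the lines overlapped. miR-25 over miR-92a, which share a seed and come from different clusters, differed by 0.08 (exact permutation p = 0.6).

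**Figure D3:**
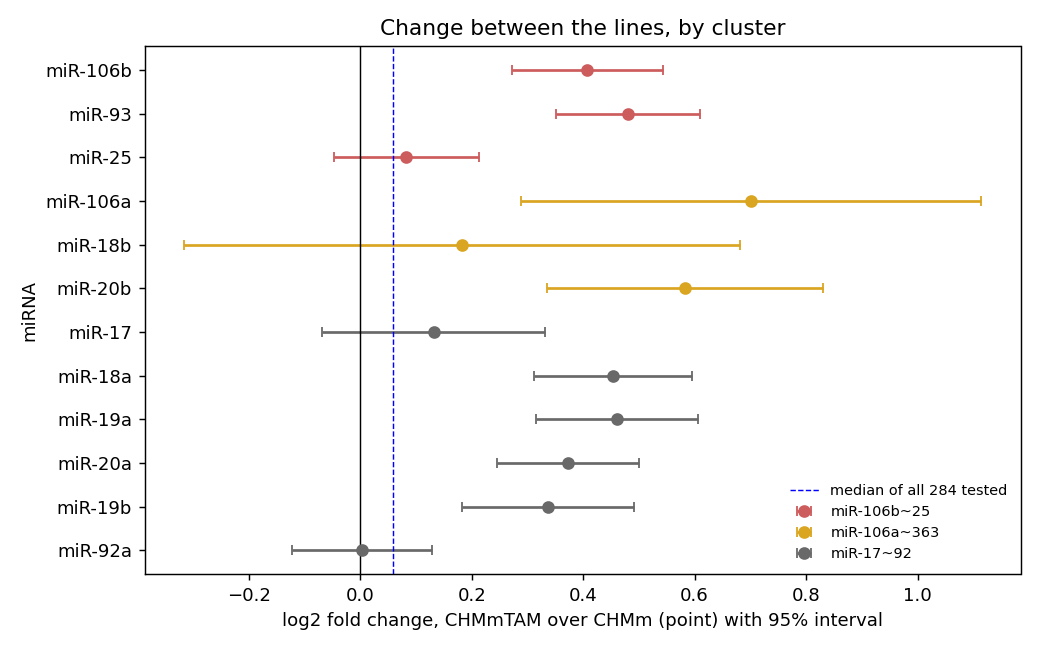
Log2 fold change of CHMmTAM over CHMm (points) with 95% intervals from the edgeR fit with TMM scaling, for the tested members of miR-106b~miR-25 (red) and miR-106a~miR-363 (yellow) and for miR-17~92 (grey); the dashed line is the median of all tested miRNAs, 0.06. The intervals of miR-25, miR-18b, miR-17 and miR-92a include 0, and those of the other 8 lie above it.

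Grouped by seed, the miR-17 family of 6 miRNAs had a mean of 7746 CPM with an SD of 279 in CHMm. In CHMmTAM the mean was 10310.0 CPM with an SD of 1009, over 3 libraries for each line. Of the family, 5 were higher (3 under upper-quartile factors) and miR-17 did not pass the test. These 5 are miR-20a and the 4 cluster members already called above. Over all tested miRNAs 25.4% were higher, and under upper-quartile factors 41 of 284 were higher and 100 lower. Most of the family's counts were of miR-20a, miR-93 and miR-106b. miR-93 and miR-106b gave 33.3% ± 0.337 and 9.67% ± 0.312 of the family's counts in CHMm and 35.0% ± 1.56 and 9.66% ± 0.515 in CHMmTAM, while miR-20b and miR-106a gave less than 0.3% in every library. The miR-25 family was at 9945 ± 272 CPM in CHMm and 10226 ± 286 CPM in CHMmTAM, and the lines overlapped. miR-25 made up 21.4% ± 1.34 of it in CHMm and 22.0% ± 1.74 in CHMmTAM, and miR-92a most of the rest. Within this family, miR-32, an intronic miRNA outside the clusters, rose by 0.36 in log2 (edgeR FDR = 8.97e-07), and miR-92b fell by 0.44 (edgeR FDR = 1.05e-06). miR-92b went from 112 to 82.4 CPM in the mean. The median over the 4 tested members of this family was 0.04, and it was -0.20 under upper-quartile factors, where 3 of the 4 were lower and none was higher.

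**Figure D4:**
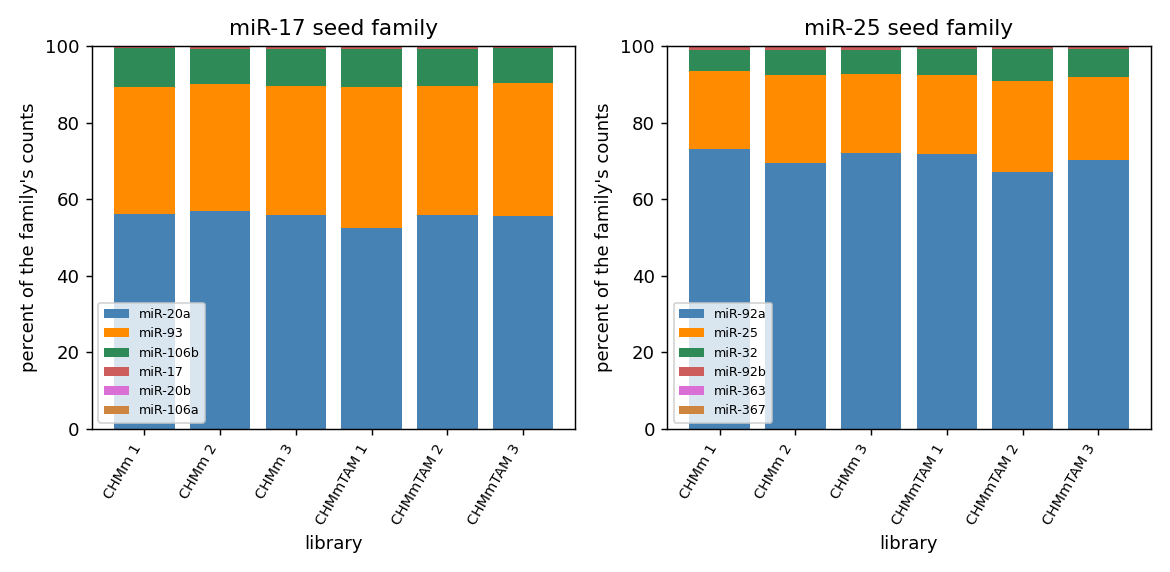
Percent of the counts of the miR-17 seed family (left) and the miR-25 seed family (right) given by each member in each library, stacked to 100 percent. miR-20a, miR-93 and miR-106b fill nearly all of the left bars and miR-92a, miR-25 and miR-32 nearly all of the right bars in every library, with miR-93 at 33.0% to 36.7% and miR-25 at 20.4% to 23.9%.

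The miRNAs with the most similar profile to each summed cluster were found among 109 miRNAs outside the 3 paralog clusters with a mean of at least 50 CPM. The measure was the root mean square distance between log2 CPM profiles centred on their means over the 6 libraries. For miR-106b~miR-25 they were miR-425, miR-185 and miR-429, at distances of 0.05, 0.05 and 0.06 against a median of 0.22 over the 109. For miR-106a~miR-363 they were miR-103, miR-330 and miR-96, at 0.14, 0.14 and 0.15 against a median of 0.36. The log2 fold changes of the first 3 were 0.29, 0.34 and 0.36, against 0.33 for the sum of miR-106b~miR-25. Those of the second 3 were 0.60, 0.50 and 0.72, against 0.57 for the sum of miR-106a~miR-363. A small distance can come from a similar change between the lines alone, and shared regulation was not tested.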

How the data were processed

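Total RNA was extracted with Trizol, miRNA was purified with a miRNeasy kit, and libraries were sequenced on a HiSeq platform. The deposited table holds unnormalized counts for each mature miRNA of the dog, with a column for each library and no pooling. The submitters' processing notes name CanFam3.1, HISAT2 2.0.4 and BWA without saying which served the small RNA. The miRNA database, trimming and treatment of reads matching several miRNAs are not given in the sources used here, and they could move counts between near-identical miRNAs.

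From the counts, miRNAs with a total of at least 10 were kept, scaled by TMM and compared by edgeR 4.0.16 (quasi-likelihood test without a block, R 4.3.3), with Benjamini-Hochberg adjustment over 284 miRNAs. A call was an FDR below 0.05. Standard errors come from the coefficient and its F statistic, and 95% intervals from these. The fit was also run on simulated counts with the same dispersion for every miRNA. Recovery was scored only at 10 CPM or more and for log2 changes of at least 0.5. It thus did not cover the levels of miR-106a and miR-18b or changes as small as those of miR-93 and miR-106b. Ratios used counts plus 0.5 and two-sided exact permutation tests over libraries (SciPy 1.17.1), adjusted over 14 pairs. Another 5 planned pairs, those with miR-363, were not computed because of its counts. Wilson intervals and count limits cover counting error only. Alternatives were RLE, upper-quartile, no and restricted TMM factors, other count filters, DESeq2 1.42.0, limma-voom (limma 3.58.1), a replicate block, an FDR below 0.01, each library left out, and summed near-identical pairs. The named miRNAs are the members, miR-17~92, relatives with a member's seed, and the 3 nearest profiles per cluster. Seed families were taken from general knowledge. Members, lists and tests were chosen with earlier results of these data known. Gene neighbours are from RefSeq, whose assembly differs from the build named, so no coordinates are given.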

Additional observations from a re-analysis of the deposited data

How the results depend on the processing

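The calls of miR-93 and miR-106b kept direction and side of the threshold in all 17 alternative fits. That of miR-20b did so in the 16 that did not add it to miR-20a, whose far higher counts set the value of the sum. miR-106a lost its call in 3, at log2 fold changes of 0.46 under upper-quartile factors, 0.20 with near-identical pairs summed and 0.50 without CHMm replicate 1. Summing also brought miR-18b past the threshold, at 0.45. Upper-quartile factors turned miR-25 to -0.16 and miR-18b to -0.061, so that 1 member was called lower. They also moved the log2 ratio of the summed miR-106b~miR-25 from 0.33 to 0.085, that of miR-106a~miR-363 from 0.57 to 0.33, and the median log2 fold changes of miR-17~92, the miR-17, miR-18 and miR-25 families to 0.11, 0.20, 0.075 and -0.20. Relative to the shifted median of all miRNAs, miR-93 remained 0.42 higher, miR-106b 0.35 and miR-25 0.02. RLE factors gave 0.26 for miR-106b~miR-25, and adding miR-19b and miR-92a to miR-106a~miR-363 gave 0.013, which follows from the level of miR-92a.

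With each library left out in turn, from 3 to 4 members were higher and none was lower. Among all miRNAs in these fits, from 64 to 76 were higher and from 47 to 52 lower, of 267 to 278 tested. The log2 ratio of the sums ran from 0.29 to 0.37 for miR-106b~miR-25 and from 0.47 to 0.69 for miR-106a~miR-363. The log2 fold changes ran from 0.46 to 0.55 for miR-93, 0.36 to 0.48 for miR-106b, 0.03 to 0.14 for miR-25, 0.43 to 0.76 for miR-20b, 0.50 to 0.86 for miR-106a and 0.06 to 0.38 for miR-18b. The changes in log2 ratio of miR-93 over miR-25 and miR-106b over miR-25 ran from 0.35 to 0.43 and from 0.30 to 0.34. Those of miR-106a over miR-20b (-0.011 to 0.42), miR-93 over miR-20b (-0.22 to 0.011) and miR-25 over miR-92a (-0.0079 to 0.16) changed sign.

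With the replicate block 4 members were higher, at 0.48 for miR-93, 0.41 for miR-106b, 0.61 for miR-20b and 0.76 for miR-106a, and no member call changed. Among all 284 miRNAs tested in that fit, 74 were higher and 52 lower. The deviations of same-numbered libraries correlated at 0.06, 0.46 and -0.31 over 117 miRNAs, so the numbers were not taken to pair the libraries. The depth limits miR-106a, miR-18b and miR-363, with at most 77 counts in a library.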

Other observations

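The miR-302 and miR-371 miRNAs, a group of pluripotent cells whose seed resembles that of miR-17 shifted along the sequence, were nearly without counts. Of the 5 listed, miR-302a was tested (edgeR FDR = 0.402). Its counts per CHMm library were 0, 4 and 2 and per CHMmTAM library 6, 4 and 3, while miR-302b, miR-302c, miR-302d and miR-371 had at most 2 counts in any library. miR-367, which shares the seed of miR-25, had no count in any of the 6 libraries.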
